A study of Homo sapiens with 6 samples.

Results

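A set of 10 genes that act in WNT signalling or mark the perivenous zone of the liver were followed in Huh7 cells after silencing of SETD5. They were the listed symbols DKK1, SFRP5, RNF43, NKD1, AXIN2, LGR5, TCF7L2, TBX3, GLUL and RHBG, and all 10 were among the 14200 genes of the deposited table. Huh7 is an established human hepatocellular carcinoma cell line. SETD5 encodes a SET-domain protein of chromatin. The series had 3 libraries of cells transfected with siRNA against SETD5 by a lipid reagent, labelled SETD5-deficient and here called SETD5 knockdown, and 3 control libraries of the same line. The treatment of the control cells, the siRNA sequence and the time after transfection are unstated in the sources used here. Whether replicate libraries came from separate cultures is not in the labels, so every error and p-value below covers only the spread among the deposited libraries, possibly a technical one. The 10 genes were selected on their levels and changes in these same 6 libraries, which were known beforehand, so these are given as a description and not as independent evidence.

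WNT ligands bind Frizzled receptors and LRP5 or LRP6 at the cell surface. This stops a cytoplasmic complex of AXIN, APC and the kinase GSK3 from marking β-catenin for degradation, and β-catenin then enters the nucleus and works with TCF and LEF factors. Several genes switched on by the pathway, among them AXIN2, NKD1 and RNF43, restrain it in turn. In liver, endothelial cells of the central vein supply WNT, and the hepatocytes around the vein express glutamine synthetase (GLUL) and other perivenous genes, while hepatocytes near the portal tract carry out urea synthesis and gluconeogenesis.

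The promoters of the 3 genes with the largest differences, DKK1, SFRP5 and RHBG, are shown because these genes moved most and in different directions. RefSeq start sites on GRCh38.p14 were available for 6 of the 10 genes, with 10 promoters in all, and these are the 250 bases before the start, 5′ to 3′ on the gene's strand. Capitals mark the core bound by TCF and LEF factors, CTTTGA, or TCAAAG where it lies on the other strand.
DKK1, chr10:52314031-52314280, plus strand: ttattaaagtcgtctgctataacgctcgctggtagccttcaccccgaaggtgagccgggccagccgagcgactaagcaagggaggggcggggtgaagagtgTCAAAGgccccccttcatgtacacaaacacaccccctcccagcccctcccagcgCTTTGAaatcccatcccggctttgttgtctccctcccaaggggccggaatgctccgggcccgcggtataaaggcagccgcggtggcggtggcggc
SFRP5, chr10:97772000-97772249, minus strand: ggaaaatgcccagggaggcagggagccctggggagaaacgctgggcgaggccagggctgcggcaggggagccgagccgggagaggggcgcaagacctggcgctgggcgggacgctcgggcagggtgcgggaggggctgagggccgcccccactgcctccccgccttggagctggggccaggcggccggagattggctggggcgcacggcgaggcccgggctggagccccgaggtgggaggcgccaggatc
RHBG, chr1:156368961-156369210, plus strand: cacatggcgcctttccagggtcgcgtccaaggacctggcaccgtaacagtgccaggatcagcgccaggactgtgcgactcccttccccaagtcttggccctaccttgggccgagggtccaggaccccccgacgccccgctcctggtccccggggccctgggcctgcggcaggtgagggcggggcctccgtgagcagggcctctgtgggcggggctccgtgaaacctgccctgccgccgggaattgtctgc
The DKK1 promoter held the core at 149 to 144 bases before the start on the opposite strand and again at 95 to 90 bases before it on the gene's own strand. At least 1 core, on either strand, was found in 11.2% of all 35116 promoters of the same length, and 2 or more in 0.977% of them. DKK1 was the only gene of the 6 with a core in these windows, which also covered GLUL, RNF43 and TCF7L2. A match of these letters is a description of the sequence and not evidence of binding. The SFRP5 and RHBG promoters were rich in G and C, at 76.8% and 70.8%, against 62.8% for DKK1 and a median of 58% over all promoters.

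The siRNA lowered its target in all 3 knockdown libraries. SETD5 stood at 136, 140 and 138 CPM (reads scaled by the authors to a library of fixed size) in knockdown libraries 1 to 3, against 212, 210 and 202 CPM in control libraries 1 to 3. An exact two-sided permutation test gave p = 0.1, the smallest that 3 against 3 libraries allow. From the values, 14038447 to 17095417 reads per library could be recovered. A mean of 1 CPM or more over the 6 libraries was met by 12865 genes, which were tested with limma on the deposited log2(CPM + 1) values, and a gene passed at a Benjamini-Hochberg adjusted p under 0.05 over all of them. Fold changes are on that log2 scale, where the added 1 shrinks the change of weakly expressed genes. The hepatocyte markers ALB, AFP, TTR, APOA1, APOB, SERPINA1 and HNF4A were all in the table, with a summed level of 34948 to 35336 CPM in knockdown libraries and 37497 to 38244 CPM in control libraries. Of 4 endothelial markers 2 were in the table (PECAM1 and CDH5), with a sum of 0.614 to 0.938 CPM in knockdown libraries and 0.786 to 1.35 CPM in control libraries. Of 4 immune markers 2 were in the table (PTPRC and CD14), with a sum of 3.31 to 3.38 CPM in knockdown and 4.67 to 4.8 CPM in control libraries. Of 4 stellate cell markers 2 were in the table (PDGFRB and RGS5), at 22.6 to 26.4 CPM in knockdown and 30.4 to 32.8 CPM in control libraries. The members of a sum did not all move together. AFP, TTR, APOA1, APOB, SERPINA1, CD14 and PDGFRB were lower after knockdown without overlap. ALB was higher, at 6813, 6997 and 6925 CPM in knockdown and 6291, 6576 and 6597 CPM in control libraries. HNF4A, PTPRC, RGS5, PECAM1 and CDH5 overlapped between the groups. The part of these shifts in the results below was not tested. In bulk libraries, fewer cells that express a gene and less RNA per cell cannot be told apart.

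Over all tested genes, 52.1% passed, 25.7% higher and 26.5% lower after knockdown, so passing was common in this comparison. Of the 10 genes, 9 passed, with 6 higher (SFRP5, DKK1, GLUL, LGR5, TCF7L2 and AXIN2) and 3 lower (RHBG, RNF43 and TBX3), and NKD1 did not. The knockdown and control values did not overlap in 8 of the 10 genes, where 57.3% of all tested genes showed no overlap. A change of at least 2-fold on the log2 scale was found for SFRP5, DKK1 and RHBG, and for 1.33% of tested genes. Since the genes were chosen with such values known, nothing is read from these counts. All 10 passed the filter on low values, SFRP5 through its level in the knockdown libraries, since its control mean was below 1 CPM.

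**Figure D1:**
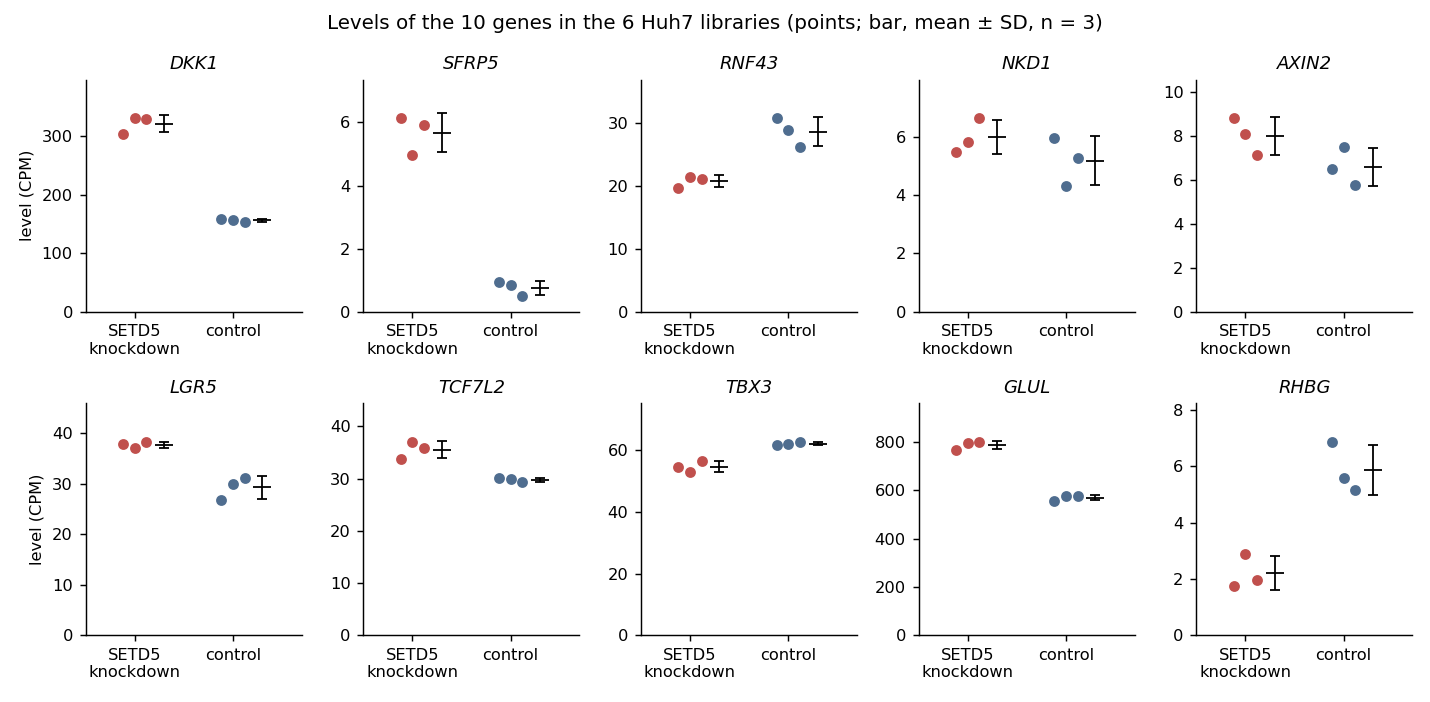
Levels in CPM of the 10 genes in each library, SETD5 knockdown at left and control at right of each panel, with points for libraries and bars for mean ± SD (n = 3). SFRP5 lies at 4.97 to 6.13 CPM in knockdown libraries and at 0.5 to 0.937 CPM in control libraries, and the 2 groups of points overlap only for NKD1 and AXIN2.

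Both secreted antagonists were higher after knockdown. DKK1, which binds LRP5 and LRP6 and keeps WNT from engaging them, stood at 304, 330 and 329 CPM in knockdown libraries 1 to 3, against 159, 156 and 153 CPM in control libraries 1 to 3. Every knockdown value was thus above every control value, and the lowest was knockdown library 1. The means were 321 ± 14.7 CPM in knockdown and 156 ± 2.8 CPM in control libraries (SD, n = 3 each), a ratio of 2.06. The log2 fold change was 1.03 with a 95% interval of 0.97 to 1.10. The spread of DKK1 in knockdown libraries, a CV of 4.58%, exceeded the 1.38% that counting alone would give at its depth.

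SFRP5, a secreted Frizzled-related protein that binds WNT ligands, stood at 6.13, 4.97 and 5.92 CPM in knockdown libraries 1 to 3, against 0.937, 0.836 and 0.5 CPM in control libraries 1 to 3. These levels rest on 98, 81 and 99 reads in the knockdown libraries and on 16, 12 and 7 reads in the control libraries. SFRP5 was the most changed of the 10 genes, and its groups lay far apart although it was read few times in the controls. The means were 5.67 ± 0.616 CPM in knockdown and 0.758 ± 0.229 CPM in control libraries (SD, n = 3 each). The ratio of summed reads, scaled for depth, was 7.36, with an exact 95% interval of 5.17 to 10.8 that covers counting error only. The log2 fold change was 1.93 (95% interval 1.65 to 2.21) with a pseudocount of 1 and 2.78 with a pseudocount of 0.1. In control libraries the CV of SFRP5, 30.2%, was close to the 29.3% of counting alone.

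The brakes on the pathway that act at the membrane or in the cytoplasm did not move together. RNF43, a membrane ubiquitin ligase that removes Frizzled receptors, stood at 19.6, 21.4 and 21.1 CPM in knockdown libraries 1 to 3, against 30.7, 28.9 and 26.1 CPM in control libraries 1 to 3. All knockdown values were below all control values, and the log2 fold change was -0.44 (95% interval -0.58 to -0.31), a ratio of means of 0.724. In GENCODE 29, RNF43 shares 4313 exon bases on the same strand with AC004687.2, which was not among the deposited genes. It also shares 143 exon bases on that strand with SUPT4H1, a transcription elongation factor subunit. SUPT4H1 stood at 59.9, 64.1 and 63 CPM in knockdown and 58.1, 53.8 and 59.4 CPM in control libraries. The sources used here do not say how reads in such shared bases were assigned.

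AXIN2, a scaffold of the complex that degrades β-catenin, stood at 8.81, 8.1 and 7.12 CPM in knockdown libraries 1 to 3, against 6.5, 7.52 and 5.79 CPM in control libraries 1 to 3. The groups overlapped, since control library 2 was above knockdown library 3. AXIN2 passed with a log2 fold change of 0.25 (95% interval 0.04 to 0.46), close to the threshold. It did not pass without the mean-variance trend or under voom. Nor did it pass without knockdown library 1 (log2 fold change 0.18) or 2 (0.24), or without control library 1 (0.24) or 3 (0.17). Its direction was the same in all 14 alternatives. AXIN2 shares 1316 exon bases on the same strand with AC004805.1, which was not among the deposited genes, and the assignment of such reads is likewise unstated.

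NKD1, which binds Dishevelled and dampens the signal, stood at 5.5, 5.83 and 6.64 CPM in knockdown libraries 1 to 3, against 5.97, 4.32 and 5.29 CPM in control libraries 1 to 3. These values overlapped, and NKD1 did not pass. Its log2 fold change was 0.18 with a 95% interval of -0.05 to 0.41, so a rise of up to that upper bound or a small fall could not be told from no change at this depth of 62 to 111 reads per library. The read ratio was 1.15, with an exact counting interval of 0.962 to 1.36.

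LGR5, a receptor for R-spondins, which strengthen WNT signalling, was higher after knockdown. It stood at 37.8, 37 and 38.2 CPM in knockdown libraries 1 to 3, against 26.8, 29.9 and 31.2 CPM in control libraries 1 to 3. The knockdown libraries had a CV of 1.62% and all lay above the controls, whose CV was 7.61% with control library 1 lowest. The log2 fold change was 0.35 (95% interval 0.24 to 0.47).

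The nuclear factors went in opposite directions. TCF7L2, a TCF factor through which β-catenin acts on its targets, stood at 33.8, 37 and 35.9 CPM in knockdown libraries 1 to 3, against 30.1, 29.9 and 29.4 CPM in control libraries 1 to 3, a log2 fold change of 0.25 (95% interval 0.14 to 0.36). TBX3, a T-box repressor and β-catenin target in liver tumours, stood at 54.6, 53.1 and 56.6 CPM in knockdown libraries 1 to 3, against 61.6, 62.2 and 62.7 CPM in control libraries 1 to 3. Neither gene's groups overlapped, and TBX3 had the smallest change of the 9 genes that passed, with a log2 fold change of -0.18 (95% interval -0.27 to -0.09).

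The 2 genes of ammonia handling in perivenous hepatocytes also went in opposite directions. GLUL, glutamine synthetase, which fixes ammonia into glutamine, stood at 767, 797 and 800 CPM in knockdown libraries 1 to 3, against 558, 575 and 576 CPM in control libraries 1 to 3. The means were 788 ± 18.1 CPM in knockdown and 570 ± 10.3 CPM in control libraries (SD, n = 3 each), a ratio of 1.38, and the log2 fold change was 0.47 (95% interval 0.41 to 0.52). GLUL has processed pseudogene copies, so the share of reads that such copies took or gave is uncertain.

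RHBG, an ammonia transporter of the Rhesus family, stood at 1.75, 2.88 and 1.97 CPM in knockdown libraries 1 to 3, against 6.85, 5.57 and 5.14 CPM in control libraries 1 to 3. The highest knockdown library was still well below the lowest control library. The levels rest on 28, 47 and 33 reads in knockdown and on 117, 80 and 72 reads in control libraries. The read ratio was 0.372, with an exact counting interval of 0.295 to 0.467, and the log2 fold change was -1.11 (95% interval -1.37 to -0.84). In knockdown libraries the CV of RHBG was 27.3%, against 16.7% from counting alone, a difference that was not tested and rests on 3 libraries.

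**Figure D2:**
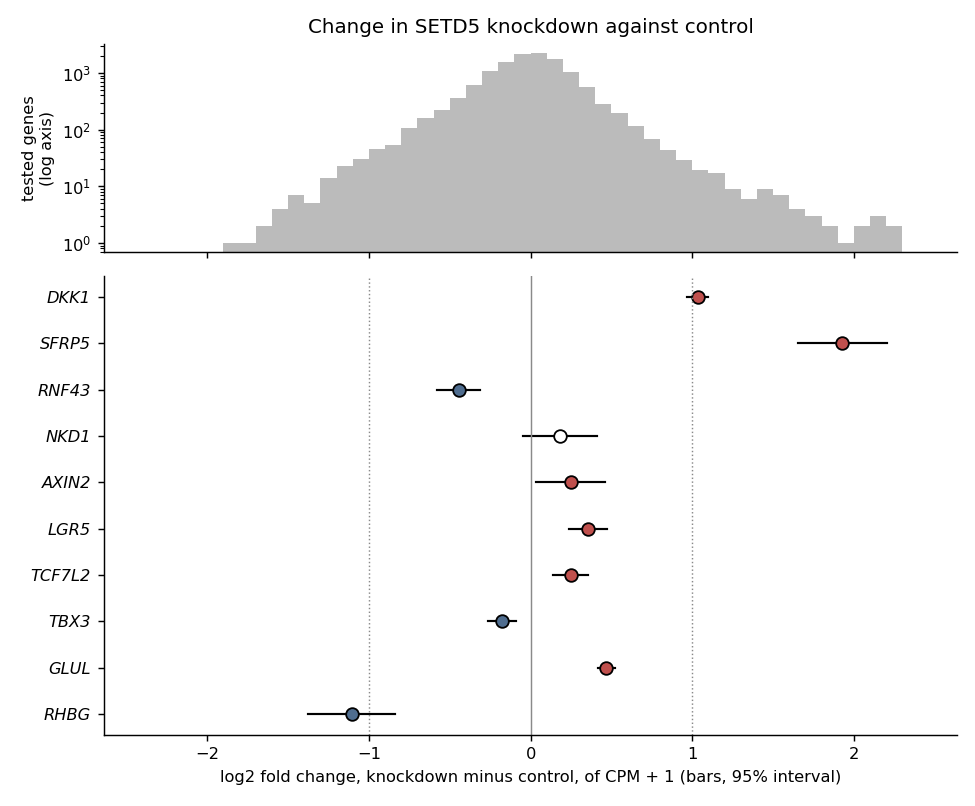
Upper panel, number of tested genes (log axis) by log2 fold change of CPM + 1, knockdown minus control. Lower panel, the 10 genes with 95% intervals, red where higher and blue where lower at an adjusted p under 0.05 and white where not passed, and dotted lines at a 2-fold change: SFRP5 at 1.93 and RHBG at -1.11 mark the ends.

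A word of 6 bases, GCACCT, that was chosen with results of these data known was also searched in the 3′ UTRs of the 10 genes. The windows are shown because the brakes RNF43, NKD1 and AXIN2 held it and the antagonists DKK1 and SFRP5 did not. The UTRs of DKK1 and SFRP5 were shorter, at 850 and 763 bases, so nothing is read from this contrast. Of the 11605 tested genes with a 3′ UTR in GENCODE 29, 27.3% held the word. Of those, 34.4% were lower and 24.4% higher after knockdown, against 24.4% lower and 28% higher among genes without it. The UTRs with the word were longer, with a median of 2391 bases against 709 bases. The word was found in RNF43, NKD1, AXIN2 and GLUL, shown here with the bases around the first copy, the word in capitals.
RNF43, word from base 1164 of a 3′ UTR of 2443 bases: ggagactaGCACCTaggtaccc
NKD1, word from base 1445 of a 3′ UTR of 15468 bases: tgagagggGCACCTgaaggagc
AXIN2, word from base 982 of a 3′ UTR of 1413 bases: acccagcaGCACCTttcctcca
GLUL, word from base 289 of a 3′ UTR of 2701 bases: aatggggtGCACCTgtccaata
Of these 4 genes 1 was lower (RNF43), 2 were higher (AXIN2 and GLUL) and NKD1 did not pass. DKK1, SFRP5, LGR5, TCF7L2, TBX3 and RHBG did not hold it in the transcript searched. The word was taken from these data, so its part in any of the changes was not tested.

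The other genes of the pathway were described by role from 9 lists, which held 73 tested genes besides the 10. Of these 73, 30 were higher and 18 lower after knockdown, with a median log2 change of 0.08 against -0.0012 over all tested genes. Over all tested genes 25.7% were higher and 26.5% lower, and the counts of every list below stand beside these shares. No list was tested as a set. The direction of none of the 48 called genes turned in any alternative, and the calls of 10 of them were lost in at least 1. Adjusted p-values below are from the limma fit over all genes.

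Among WNT ligands and the proteins that release them, the table held 7 of 21 genes and 4 were tested, of which 3 were higher and 1 did not pass. WLS, the carrier that takes WNT proteins to the cell surface, averaged 8.52 ± 0.573 CPM in knockdown and 5.74 ± 0.534 CPM in control libraries (SD, n = 3 each; limma adjusted p = 7.09e-05). PORCN, the acyltransferase that adds the lipid of WNT proteins, averaged 6.44 ± 0.329 CPM in knockdown and 4.31 ± 0.448 CPM in control libraries (limma adjusted p = 0.000262). WNT11 was at 2.18 and 1.36 CPM in knockdown and control libraries (limma adjusted p = 0.013), but did not pass without knockdown library 2 (log2 fold change 0.33) or control library 2 (0.35). WNT3 had 3.19 CPM in knockdown and 2.95 CPM in control libraries, without passing (log2 fold change 0.08).

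Besides DKK1 and SFRP5, 5 secreted or cell-surface antagonists were tested, with 1 higher and 1 lower. FRZB, a further Frizzled-related protein, rose to 3.11 ± 0.514 CPM in knockdown libraries, against 1.7 ± 0.138 CPM in control libraries (SD, n = 3 each; limma adjusted p = 0.000294). KREMEN1, the receptor through which DKK1 clears LRP5 and LRP6, fell to 20.8 ± 1.18 CPM in knockdown libraries, against 29.3 ± 0.799 CPM in control libraries (limma adjusted p = 4.2e-08). DKK3 was at 19.9 and 18.6 CPM and NOTUM, which removes the lipid of WNT proteins, at 2.44 and 2.03 CPM in knockdown and control libraries, and neither passed. WIF1, a secreted WNT-binding protein below the filter, was listed at 1.13, 1.04 and 0.598 CPM in knockdown and at 0.234, 0.279 and 0.429 CPM in control libraries. SOSTDC1, the other antagonist below the filter, went the other way in its means, at 0.328 CPM in knockdown and 0.496 CPM in control libraries, with overlap.

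Receptors moved both ways, with 5 of 12 higher and 2 lower and a median log2 change of 0.05. LRP5, the co-receptor, fell to 248 ± 6.8 CPM in knockdown libraries, against 330 ± 10.5 CPM in control libraries (SD, n = 3 each; limma adjusted p = 5.31e-14), while its partner LRP6 was at 125 ± 7.49 CPM in knockdown and 109 ± 2.51 CPM in control libraries (limma adjusted p = 6.45e-05). FZD7 fell to 0.687 times the control (limma adjusted p = 5.69e-09) and FZD5 rose to 1.38 times (8.03e-12). ROR1, a receptor of β-catenin-independent WNT signals, rose to 1.75 times the control (3e-07). FZD4 was at 67.7 and 62.5 CPM in knockdown and control libraries and passed (limma adjusted p = 0.0248). It did not pass without the mean-variance trend, or without knockdown library 1 (log2 fold change 0.12) or 2 (0.09) or control library 2 (0.10) or 3 (0.09). In the R-spondin module, LGR4 was at 410 ± 4.66 CPM in knockdown and 385 ± 5.66 CPM in control libraries (limma adjusted p = 0.00362), a call lost without the mean-variance trend. ZNRF3, the partner ligase of RNF43, had 47.6 CPM in knockdown and 44.6 CPM in control libraries, without passing (log2 fold change 0.09), and the R-spondin genes of the list were not analysed here.

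Of 18 tested transducers and destruction complex genes besides AXIN2 and NKD1, 9 were higher and 1 lower, beside 25.7% and 26.5% of all tested genes. CTNNB1, which encodes β-catenin, stood at 1015, 1048 and 1038 CPM in knockdown libraries 1 to 3, against 786, 792 and 773 CPM in control libraries 1 to 3, without overlap (log2 fold change 0.40, limma adjusted p = 8.34e-16). Its message does not report the amount or place of the protein. Some genes of the complex that degrades it were higher as well: GSK3B was at 1.2 times the control (limma adjusted p = 1.25e-07), AXIN1 at 1.22 times (0.000271) and APC at 1.13 times (0.00351). BTRC, the ubiquitin ligase subunit that recognises marked β-catenin, fell to 0.821 times the control (0.000429). The casein kinase CSNK1G2 rose to 1.28 times (1.04e-08), and DVL3, a Dishevelled protein, was at 170 CPM in both groups. The casein kinase CSNK1A1 was at 144 CPM in knockdown and 143 CPM in control libraries. CSNK1A1, FBXW11, TNKS and TNKS2 did not pass.

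Of 15 tested nuclear factors besides TCF7L2, 7 were higher and 4 lower, beside 25.7% and 26.5% of all tested genes. BCL9L and BCL9, which join β-catenin to its co-activators, fell to 0.722 times (limma adjusted p = 9.89e-10) and 0.81 times the control (0.000574). The acetyltransferase EP300 rose to 1.32 times (1.26e-10), and so did TBL1X, a subunit of co-repressor complexes, to 1.37 times (2e-13), and the co-repressor TLE4, to 1.37 times (7.9e-07). Relatives of these co-repressor genes also fell, TBL1XR1 to 0.893 times (0.00124) and TLE3 to 0.838 times (0.0153). CREBBP rose to 1.29 times (4.01e-09) and PYGO2 to 1.16 times (2.39e-05), and TLE1 and TCF7L1 were higher too. The calls of TLE3, TLE1 and TCF7L1 were lost in some alternatives. Co-activator and co-repressor genes thus lay on both sides. TCF7 was at 12.6 and 13.7 CPM in knockdown and control libraries and did not pass, and LEF1 was below the filter.

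Of the feedback and target genes, 7 were tested besides the 10, and 2 were higher and 5 did not pass. TNFRSF19 rose to 28.3 ± 3.13 CPM in knockdown libraries, against 19.5 ± 0.25 CPM in control libraries (SD, n = 3 each; limma adjusted p = 7.54e-08), and MYC to 112 ± 1.35 CPM in knockdown libraries, against 89.3 ± 3.01 CPM in control libraries (2.12e-09). CCND1, ZNRF3, SP5, NOTUM and TCF7 did not pass. SP5, a transcription factor induced by β-catenin in many cell types, was at 2.01 and 2.16 CPM in knockdown and control libraries.

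Zonation genes were set side by side. Of 8 tested perivenous genes, 5 of them among the 10, 4 were higher and 4 lower, with a median log2 change of 0.01. Besides the 10, AHR, the aryl hydrocarbon receptor, rose to 1.14 times the control (limma adjusted p = 0.00128), whereas CYP27A1, a bile acid synthesis enzyme, fell to 0.735 times (7.92e-10) and OAT, ornithine aminotransferase, to 0.885 times (8.17e-05). CYP2E1, a defining perivenous enzyme, was below the filter at 0.658 to 0.982 CPM in knockdown and 0.572 to 0.703 CPM in control libraries. Of 10 tested periportal genes, 1 was higher and 8 lower, with a median log2 change of -0.39. Over all tested genes 25.7% were higher and 26.5% lower, and the difference between the 2 lists was not tested.

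The exception among periportal genes was CPS1, the first enzyme of the urea cycle, at 138, 147 and 157 CPM in knockdown libraries 1 to 3, against 50, 52.5 and 59.1 CPM in control libraries 1 to 3 (log2 fold change 1.44, limma adjusted p = 3.44e-24). The later urea cycle enzymes went the other way: ARG1 fell to 0.493 times the control (1.89e-14), ASL to 0.698 times (1.07e-12) and ASS1 to 0.872 times (0.000509). CDH1, the E-cadherin of periportal hepatocytes and of epithelia in general, which also binds β-catenin, fell to 45.5 ± 1.29 CPM in knockdown libraries, against 109 ± 4.04 CPM in control libraries (SD, n = 3 each; limma adjusted p = 5.86e-24). HAL, histidine ammonia-lyase, passed (limma adjusted p = 0.0348), but the call ended without the mean-variance trend and under quantile normalization. It also ended without knockdown library 2 (log2 fold change -0.23) or 3 (-0.21) or control library 3 (-0.13).

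**Figure D3:**
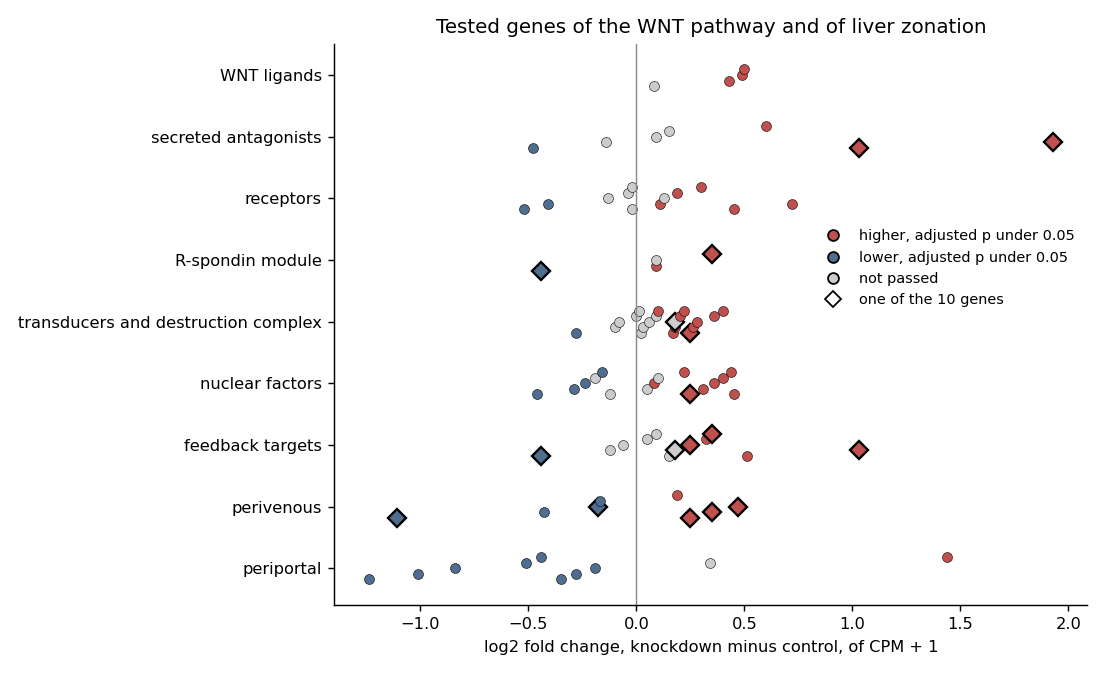
Log2 fold change of CPM + 1, knockdown minus control, of each tested gene by list, red where higher, blue where lower and grey where not passed, with diamonds for the 10 genes. SFRP5 and DKK1 stand at the right of the secreted antagonists, and perivenous genes lie on both sides of 0. To the left in blue lie 8 of 10 periportal genes, where 26.5% of all tested genes were lower.

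The genes whose log2 values over the 6 libraries, each centred on its own mean, lay nearest to those of SFRP5 and DKK1 were sought among genes that averaged 5 CPM or more. For SFRP5, 10694 genes were searched and the nearest were the neuronal tubulin TUBB3 at a root mean square distance of 0.080, SPTSSB, a small subunit of serine palmitoyltransferase, at 0.149 and the alcohol dehydrogenase ADH1A at 0.151. TUBB3 stood at 114, 109 and 114 CPM in knockdown libraries 1 to 3, against 29.5, 27.6 and 24.8 CPM in control libraries 1 to 3. For DKK1 the nearest of 10693 genes were SPTLC3, a catalytic subunit of serine palmitoyltransferase, at 0.029, the collagen chain COL1A2 at 0.033 and the retinal dehydrogenase ALDH1A1 at 0.033. SPTLC3 stood at 224, 235 and 229 CPM in knockdown and 112, 114 and 112 CPM in control libraries. With 6 libraries in 2 groups, such a likeness reflects mainly a difference of similar size between the groups on the log2(CPM + 1) scale. For SFRP5 it holds on that scale only, where the added 1 shrinks the change. The ratio of mean CPM was 7.49 for SFRP5, against 4.11 for TUBB3, 4.55 for SPTSSB and 4.69 for ADH1A.

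**Figure D4:**
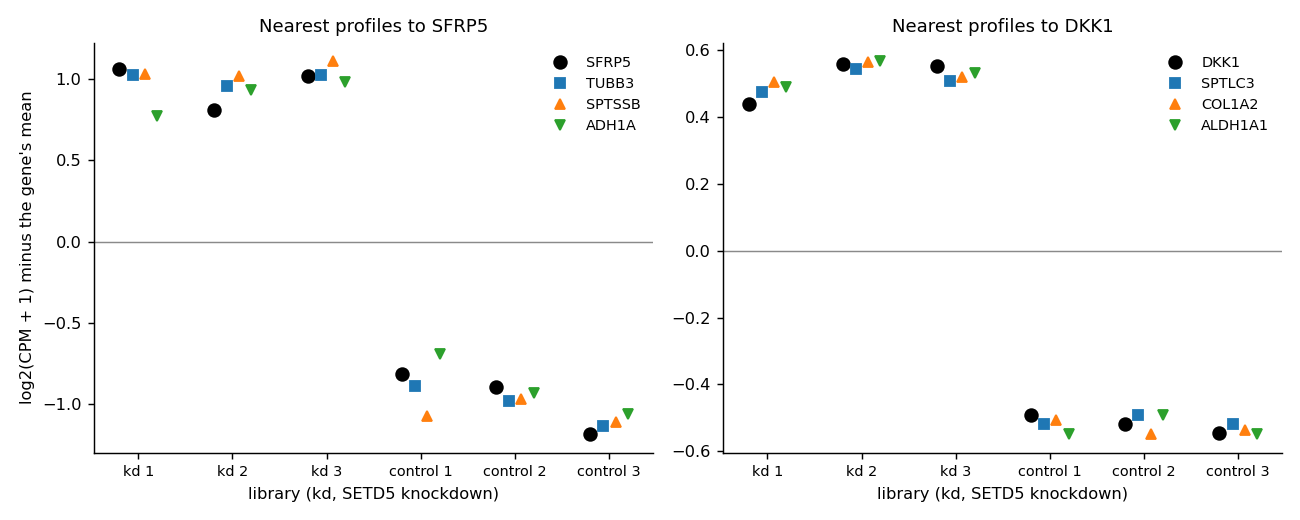
Log2(CPM + 1) minus each gene's mean over the 6 libraries for SFRP5 (left) and DKK1 (right) with their 3 nearest genes, SETD5 knockdown libraries before control libraries. SFRP5 and its neighbours span about the same range, with TUBB3 at a distance of 0.080, and those of DKK1 lie within 0.033.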

How the data were processed

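The series holds RNA-sequencing of 6 Huh7 libraries, made with a stranded, poly(A)-selecting kit, per the labels' protocols, and grouped by title and genotype label. The submitters' processing notes name STAR 2.5.1, R 3.3.0 and the builds hg19 and mm10 without steps. The sources used here state neither counting, strand use, scaling nor filters. The authors deposited 1 table of log2 values. Turned back to CPM with a pseudocount of 1, 100% of values were whole multiples of the CPM of 1 read (within 0.01 of a whole number), so the values are log2(CPM + 1) of whole reads. A floor of 3 reads is 0.176 to 0.214 CPM, and intervals from reads cover counting error only. Libraries of a group differed by a chi-square of 1.25 to 2.07 per gene, and none were merged.

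Genes averaging 1 CPM or more were tested with limma 3.58.1 in R 4.3.3 (lmFit, eBayes with trend, two-sided, group as the only term), adjusted over 12865 genes. The script was tested on simulated data. Exact permutation tests and binomial intervals (Clopper-Pearson) used scipy 1.17.1. The 10 genes, the lists and the named genes were chosen with earlier results of these data known. Each list names up to 4 called genes with the largest change and up to 2 further genes with the highest level, and part of these, and other list members chosen after their values were seen, are given. The promoter and 3′ UTR searches were added after the data were seen. One GENCODE 29 transcript per gene was used, that with the longest coding sequence. Alternatives were another pseudocount, 2 other filters, no trend, 2 scalings, voom, a replicate block and leaving out each library.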

Additional observations from a re-analysis of the deposited data

How the results depend on the processing

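Across 14 alternatives (13 for SFRP5 and RHBG, which a mean of at least 5 CPM removes), each of the 10 genes and SETD5 kept its direction, and all but AXIN2 kept its side of the threshold. AXIN2 lost its call in 6. The log2 fold change ranged from 1.01 to 1.07 for DKK1, 1.82 to 2.87 for SFRP5, -1.44 to -1.0 for RHBG, 0.45 to 0.49 for GLUL, -0.51 to -0.39 for RNF43 and 0.17 to 0.33 for AXIN2. Counts of called genes stayed within 1.5 times of 3303 higher and 3403 lower in every alternative. Under median centring they were 3487 and 3205, and the median log2 change of all genes was 0.0095. The titles share replicate numbers. Deviations from the group mean correlated at most weakly between libraries of the same number, at -0.011, 0.054 and 0.042 for numbers 1 to 3. Libraries of different numbers gave -0.060 to 0.021, and not every library correlated best with its own number. With the replicate as a block, 3399 genes were higher and 3499 lower, and of the 10 genes 6 and 3. Depth limits SFRP5, RHBG, NKD1 and AXIN2, at 7 to 141 reads per library.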
